A study of Mus musculus with 8 samples.

Results

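The genes described here are the keratins of simple, single-layered epithelia (Krt7, Krt8, Krt18 and Krt19) and stratifin (Sfn), 5 of the 23284 genes in the authors' deposited table, followed over mouse embryonic stem (ES) cell cultures with and without induction of a Ctcfl transgene. They were picked by symbol, because Krt8, Krt18 and Sfn had higher values with doxycycline in the transgenic clone and not in the other clone. Their doxycycline responses are therefore given as a description and were not tested. All 5 passed the authors' own condition for a test in each of the 4 comparisons used.

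The cells were of 2 ES cell clones of mixed strain. Clone 6 carries a Ctcfl transgene that doxycycline induces, and clone 7 lacks that transgene. Ctcfl encodes the germline relative of the DNA-binding protein Ctcf. Both clones were kept on mouse embryonic fibroblasts and then plated without them for 48 h, either with doxycycline at 2 µg/ml or with none, which gave 4 groups. Each group had 2 libraries, 1 from each of 2 experiments, read as 75 bp single ends. The labels call these biological replicates. With 1 clone of each genotype, a genotype effect and a clone effect cannot be told apart. Which promoter drives the transgene is not stated in the labels.

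The table gives 1 value per gene and group in FPKM (mapped fragments scaled to transcript length and library size), so no spread between libraries could be shown and library depth is unknown. Group sums lay between 717813 and 737443 FPKM, and 12033 to 12092 genes reached 1 FPKM. Of the 15 ES cell markers all reached 1 FPKM, led by Dppa5a (1218 to 1553 FPKM) and the core pluripotency factor Pou5f1 (1011 to 1116 FPKM). In both clone contrasts 4 of these 15 were called, against 1.37% of all tested genes without and 1.52% with doxycycline. Without doxycycline in clones 6 and 7, Nanog (97.6 and 57.9 FPKM) and Zfp42 (58.8 and 18.9 FPKM) were higher in clone 6, and Sox2 (105 and 168 FPKM) and Fgf4 (28.9 and 49.4 FPKM) were lower. With doxycycline in clone 6, 0 of the 15 were called, where 0.108% of all tested genes were. Of the 15, 9 had a difference above 0. The list median was 0.29 on the log2(FPKM + 1) scale, against 0.00104 over all genes. In clone 7, which lacks the transgene, 14 of the 15 lay above 0 with doxycycline. The median there was 0.17, against 0.0212 over all genes. The part of these markers in the keratin values was not tested. In bulk RNA, fewer cells that express a gene and less RNA per cell cannot be told apart.

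Keratins are the intermediate filament proteins of epithelial cells. A filament forms only from pairs of a basic type II keratin, here Krt7 and Krt8, with an acidic type I keratin, here Krt18 and Krt19, and a keratin without a partner is degraded. Krt8 and Krt18 are the first keratins of the embryo, appear in its outer trophectoderm layer, and persist in simple epithelia such as those of liver and gut, while Krt7 and Krt19 accompany them in ducts and in trophoblast. Sfn encodes 14-3-3 sigma, the epithelial member of a family of phosphoserine-binding adaptor proteins, known as a p53 target that restrains entry into mitosis. Keratin filaments are anchored to desmosomes by desmoplakin.

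The deposited loci (build mm10, counted from 1) place Krt8 at 101996711 to 102004342 and Krt18 at 102028216 to 102032026 on chromosome 15, separated by 23.9 kb. GENCODE vM21, on the same build, lists Krt8 on the minus strand with 9 exons and Krt18 on the plus strand with 7 exons, so their starts face each other across that gap. Krt7 lies on the same chromosome at 101412403 to 101427806 (plus strand, 9 exons), 569 kb from Krt8. Krt19 lies on chromosome 11 at 100140811 to 100145919 (minus strand, 6 exons). Sfn is a gene of 1 exon on chromosome 4 at 133600556 to 133602168 (minus strand). All 5 are protein coding. The annotated loci of Krt8 and Krt7 each overlap 1 noncoding gene on the other strand (Gm36026 and Gm671), and 1 pseudogene is named after Krt8. Whether the authors' counting used strand is not stated in the labels, so reads of these overlapping pairs cannot be separated.

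The promoters of the 3 members on which the choice rested are shown because the transgene encodes a relative of the CCCTC-binding factor. The 250 bases before each RefSeq start (GRCm38.p6) are written 5′ to 3′ on the gene's strand, and capitals mark CCCTC or its reverse complement GAGGG.
Krt8, chr15:102004343-102004592, minus strand: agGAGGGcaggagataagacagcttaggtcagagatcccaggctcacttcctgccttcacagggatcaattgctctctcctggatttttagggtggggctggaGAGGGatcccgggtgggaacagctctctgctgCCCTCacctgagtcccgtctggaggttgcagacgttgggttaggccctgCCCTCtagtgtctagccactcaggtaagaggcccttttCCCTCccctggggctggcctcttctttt
Krt18, chr15:102027966-102028215, plus strand: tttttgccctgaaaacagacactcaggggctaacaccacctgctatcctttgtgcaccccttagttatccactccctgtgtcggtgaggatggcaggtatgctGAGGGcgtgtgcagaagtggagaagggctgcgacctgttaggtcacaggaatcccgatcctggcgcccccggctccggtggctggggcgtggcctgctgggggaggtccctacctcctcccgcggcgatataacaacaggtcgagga
Sfn, chr4:133602169-133602418, minus strand: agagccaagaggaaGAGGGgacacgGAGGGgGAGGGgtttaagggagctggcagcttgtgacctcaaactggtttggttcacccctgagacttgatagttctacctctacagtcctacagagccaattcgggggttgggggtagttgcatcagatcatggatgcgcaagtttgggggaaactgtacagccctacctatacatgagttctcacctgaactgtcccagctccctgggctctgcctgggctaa
RefSeq promoters matched 4 of the 5 members, the exception being Krt19. Krt8 had 5 matches to CCCTC, Sfn had 3, and Krt18 and Krt7 had 1 each, searched on both strands. Of all 32851 promoter windows of this length, 60.5% held at least 1 match, 13.7% at least 3 and 2.61% at least 5. A longer Ctcf core motif was found in none of the 4 windows and in 0.0335% of all windows. The E-box CANNTG was found 2 times in Krt8 and 1 time in each of the other 3 windows, against 66.2% of all windows with a match. GC boxes (GGGCGG, in 32.7% of all windows) were found only in Krt7, which had 4. The AP-1 site TGANTCA (6.75% of all windows), the TATA box TATAAA (12.4%) and the p53 half-site (7.13%) were in none of the 4. GC content was 58.0% for Krt8, 60.4% for Krt18, 54.4% for Sfn and 66.0% for Krt7, with a median of 52.4% over all windows. These letter matches describe the windows and do not show binding.

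The type II keratin Krt8 stood at 184 FPKM in clone 6 with doxycycline, 112 FPKM in clone 6 without it, 26.8 FPKM in clone 7 with it and 30.8 FPKM in clone 7 without it. Its type I partner Krt18 followed the same order of clones, at 167, 96.3, 35.0 and 41.8 FPKM. Both genes thus had their highest value in the induced transgenic clone and their lowest in clone 7 with doxycycline. Among all genes of a group, Krt8 ranked 560th with and 861st without doxycycline in clone 6, and 3449th and 3059th in clone 7.

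Krt19, the small type I keratin, stood at 38.5 and 32.6 FPKM in clone 6 with and without doxycycline and at 12.4 and 16.8 FPKM in clone 7. Krt7, the second type II keratin, was the least abundant member at 5.92 and 4.51 FPKM in clone 6 and 2.18 and 3.26 FPKM in clone 7. Sfn was the most abundant, at 329 and 232 FPKM in clone 6 and 97.7 and 100.3 FPKM in clone 7. In the plot of levels by group, the clone 6 values lie above both clone 7 values for each of the 5 genes.

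**Figure D1:**
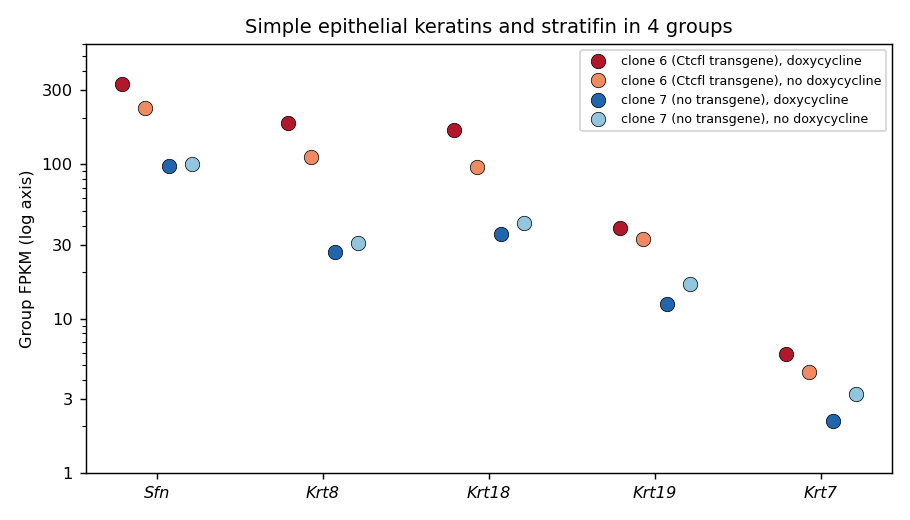
Group FPKM (log axis) of Sfn, Krt8, Krt18, Krt19 and Krt7 in 4 groups, 1 point for the authors' value over 2 libraries. For every gene both clone 6 points lie above both clone 7 points, and Sfn reaches 329 FPKM in clone 6 with doxycycline.

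The question behind the design was which genes respond to induction of the transgene. In clone 6 the ratio with over without doxycycline was 1.73 for Krt18, 1.65 for Krt8, 1.42 for Sfn, 1.31 for Krt7 and 1.18 for Krt19. On the log2 scale these were differences of 0.79 (SE 0.17), 0.72 (SE 0.16), 0.50 (SE 0.14), 0.39 (SE 0.31) and 0.24 (SE 0.20). Each SE here is the log2 ratio divided by the deposited test statistic, and is an approximation from 2 libraries per group. Among the 11877 genes at 1 FPKM or more in both groups, Krt18 had the 43rd highest ratio, Krt8 the 57th, Sfn the 180th, Krt7 the 344th and Krt19 the 963rd. The authors' deposited table calls Krt8 and Krt18 higher at a q-value under 0.05, 2 of 5 members, where 0.0923% of 13003 tested genes were called higher and 0.108% in either direction. Since the members were picked on this contrast, nothing is read from that share. Neither call held when the deposited p-values were adjusted within this comparison alone, which left 0 of 14 called genes. Sfn, though one of the reasons for the choice, was not called.

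In clone 7, where doxycycline meets no transgene, the ratios were 0.974 for Sfn, 0.869 for Krt8, 0.838 for Krt18, 0.736 for Krt19 and 0.667 for Krt7. The log2 differences were -0.04 (SE 0.18) for Sfn, -0.20 (SE 0.25) for Krt8, -0.26 (SE 0.25) for Krt18, -0.44 (SE 0.33) for Krt19 and -0.58 (SE 0.50) for Krt7. All 5 values have the opposite sign to those of clone 6. The authors' deposited table called 0 of 5 members and 0 of 12908 genes in clone 7 (percent called 0), with 14 genes and 0 members at an unadjusted p under 0.05. The difference between the clones' responses was part of the choice of genes and was not tested.

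**Figure D2:**
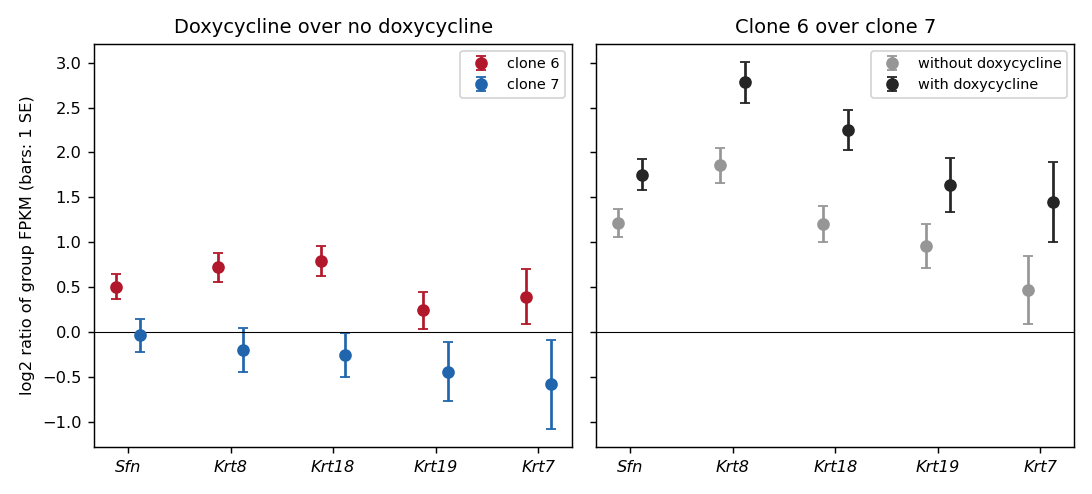
Left, log2 ratio of group FPKM with over without doxycycline in clone 6 (red) and clone 7 (blue); right, clone 6 over clone 7 without (grey) and with (black) doxycycline. Bars are 1 SE from the deposited statistic and can overstate precision. The left panel runs from -0.58 for Krt7 in clone 7 to 0.79 for Krt18 in clone 6, and the right panel from 0.47 for Krt7 to 2.78 for Krt8.

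The clones were next set against each other without doxycycline, a contrast that the choice of genes did not use directly, although it shares both uninduced groups with it. Krt8 was 3.62-fold higher in clone 6, a log2 difference of 1.86 (SE 0.20). Sfn was 2.32-fold higher (1.21, SE 0.16) and Krt18 was 2.30-fold higher (1.20, SE 0.20). The authors' deposited table gave these 3 genes its smallest q of 0.00812. It called 3 of 5 members higher, against 0.797% of 13047 tested genes called higher and 1.37% in either direction. These 3 are the genes on which the choice rested, and the choice used both uninduced groups. Nothing is therefore read from that share. Krt19 stood 1.94-fold apart (0.96, SE 0.24) with a q of 0.0606 in the authors' deposited table, and did not pass. Krt7 was 1.38-fold apart (0.47, SE 0.38) with a q of 0.9996 in that authors' deposited table. Among the 11766 genes at 1 FPKM or more in both clones, Krt8 had the 15th highest ratio, Sfn the 66th, Krt18 the 67th, Krt19 the 118th and Krt7 the 602nd.

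With doxycycline in both clones the ratios of all 5 genes were larger in value. That follows from the opposite signs of their doxycycline responses in the clones, and was not tested. Krt8 was 6.87-fold higher in clone 6 (log2 2.78, SE 0.22), Krt18 4.76-fold (2.25, SE 0.22), Sfn 3.37-fold (1.75, SE 0.17) and Krt19 3.12-fold (1.64, SE 0.30). In the authors' deposited table each of these 4 had a q of 0.00812, so 4 of 5 members were called higher, against 0.857% of 13064 tested genes called higher and 1.52% in either direction. Krt7 was 2.72-fold apart (1.44, SE 0.45) with a q of 0.316 in the authors' deposited table, and did not pass. This contrast holds the induced clone 6 group, whose high values were a reason for the choice, and the clone 7 group with doxycycline, which the choice also used. Nothing is therefore read from the share of members called. Krt8 had the 9th highest ratio of 11755 genes at 1 FPKM or more in both groups.

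Markers of feeder fibroblasts differed between the clones in part. Without doxycycline, 16 of 20 fibroblast (feeder) markers at 1 FPKM or more stood above 0 in clone 6 over clone 7, with a median of 0.30 on the log2(FPKM + 1) scale. Over all genes that median was -0.002. Of the 22 feeder markers the summed level was 1397 and 1074 FPKM without and 1484 and 1090.4 FPKM with doxycycline in clones 6 and 7. The smooth muscle gene Tagln was called in both clone contrasts (188 against 101 FPKM without doxycycline) and Acta2 in the one with doxycycline (131 against 68.1 FPKM). No other gene of the list was called. Over all tested genes the shares called were 1.37% without and 1.52% with doxycycline. Without doxycycline Col1a1 was at 132 against 92.8 FPKM, Sparc at 157 against 107 FPKM and Fn1 at 184 against 175 FPKM. Col6a1 had the other order, at 16.9 against 18.5 FPKM. Lum and Fap were at most 0.506 and 0.223 FPKM in any group. With doxycycline in clone 6, 10 of 20 feeder markers stood above 0, with a median of 0.01. Their part in the keratin values was not tested.

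The 16 trophoblast markers that are not keratins summed to 56.4 and 52.3 FPKM in clone 6 with and without doxycycline and to 29.3 and 29.0 FPKM in clone 7. The T-box factor Eomes, also a gene of the primitive streak, was the 1 member called between the clones (18.8 against 2.79 FPKM without doxycycline, 15.2 against 2.67 FPKM with it). In each clone contrast 11 were tested, and 1.37% without and 1.52% with doxycycline were called of all tested genes. The trophectoderm factor Cdx2 was at 1.84 and 1.42 FPKM in clone 6 and 0.430 and 0.514 FPKM in clone 7, the trophoblast stem cell factor Elf5 was at most 0.0833 FPKM, and the spongiotrophoblast gene Tpbpa was listed at 0 in all 4 groups. Without doxycycline, 8 of 9 of these trophoblast markers at 1 FPKM or more stood above 0 in clone 6 over clone 7, with a median of 0.16. With it, 10 of 10 did, with a median of 0.54. Over all genes 49.5% and 46.2% stood above 0. With doxycycline in clone 6, 0 of 11 tested trophoblast markers were called, where 0.108% of all tested genes were, and the median was 0.20. The 18 primitive and visceral endoderm markers that are not keratins summed to 31.9 to 37.9 FPKM in the 4 groups. The most abundant was Col4a1, at 24.5 against 17.2 FPKM in clones 6 and 7 without doxycycline, which was not called. In that contrast 3 of 6 at 1 FPKM or more stood above 0. The visceral endoderm genes Ttr and Apoa4 were listed at 0 in all 4, and the primitive endoderm factor Sox17 was at most 0.142 FPKM. The part of these cell types in the keratin values was not tested.

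Within the keratin family the 4 simple epithelial members made up most of the signal. The table holds 52 keratin genes, 28 of type I and 24 of type II, of which 7 reached 1 FPKM in a group and 14 were listed at 0 in all 4. The summed keratin level was 415 and 268 FPKM in clone 6 with and without doxycycline and 96.0 and 110.4 FPKM in clone 7. The 4 members held 95.3% and 91.5% of it in clone 6 and 79.5% and 84.0% in clone 7. The 48 others summed to 19.5 and 22.9 FPKM in clone 6 and to 19.7 and 17.7 FPKM in clone 7.

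The 3 others at 1 FPKM or more were all type I. Krt42, a mouse keratin of the same chromosome 11 cluster as Krt19, was at 9.95 and 10.98 FPKM in clone 6 and 6.99 and 6.30 FPKM in clone 7. Krt17, a keratin of skin appendages and of injured epidermis, was at 5.20 and 6.99 FPKM in clone 6 and 8.04 and 7.27 FPKM in clone 7. Krt10, of the differentiated epidermis, lay between 1.53 and 1.83 FPKM in all groups. None of the 3 was called in any of the 4 comparisons, where at most 1.52% of all tested genes were, so nothing is read from it. Krt5 and Krt14, the pair of basal stratified epithelium, were at most 0.0178 and 0.707 FPKM.

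The balance of the filament partners differed in value between the clones. The ratio of Krt8 to Krt18 FPKM was 1.10 and 1.16 in clone 6 with and without doxycycline and 0.764 and 0.737 in clone 7. Summed over the family, type II keratins gave 191 and 117 FPKM and type I keratins 224 and 151 FPKM in clone 6, while in clone 7 type II gave 29.6 and 34.8 FPKM and type I 66.4 and 75.6 FPKM. Type I mRNA thus exceeded type II mRNA in all 4 groups on the FPKM scale. Krt18 was 4.33 and 2.95 times as abundant as Krt19 in clone 6 and 2.84 and 2.49 times in clone 7. No test of these ratios was possible without values per library.

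**Figure D3:**
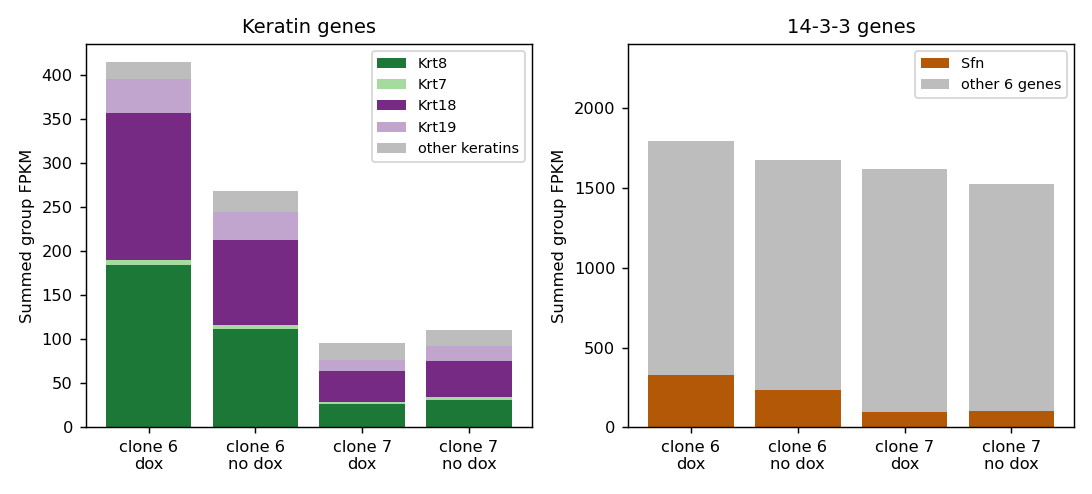
Stacked group FPKM of the keratin genes (left) and of the 14-3-3 genes (right) in 4 groups, 1 bar for each. Krt8 and Krt18 fill most of the keratin bars of clone 6, which reach 415 and 268 FPKM against 96.0 and 110.4 FPKM in clone 7, and Sfn is the part of the 14-3-3 bars that varies most.

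Sfn was the family member whose share varied most between the groups. It made up 18.4% and 13.9% of the summed 14-3-3 FPKM in clone 6 with and without doxycycline, and 6.04% and 6.58% in clone 7. By level it was the second of the 7 genes in induced clone 6, the fourth without doxycycline, and the sixth in both clone 7 groups. The 6 others, ubiquitous adaptors, summed to 1424 to 1519 FPKM in the 4 groups. The most abundant were Ywhae (471 to 504 FPKM), Ywhaq (292 to 319 FPKM) and Ywhaz (231 to 253 FPKM). None of the 6 was called in any of the 4 comparisons. Among all tested genes 0.108% and 0% were called for doxycycline in clones 6 and 7, and 1.37% and 1.52% between the clones. Nothing is read from the absence of calls among 6 genes. Their median difference between clones without doxycycline was 0.04 on the log2(FPKM + 1) scale.

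The genes whose products bind or anchor keratins were followed as a list of 17. In clone 6, 1 of 17 tested members was called higher with doxycycline and 16 were not called, where 0.0923% of all tested genes were called higher. The list had a median of 0.12 against 0.00104 over all genes and 13 of 16 at 1 FPKM or more above 0, where 50.4% of all genes lay above 0. The called member was Dsp, which encodes desmoplakin, the desmosomal linker of keratin filaments, at 17.1 and 9.27 FPKM in clone 6 and 2.99 and 3.38 FPKM in clone 7. Its doxycycline call was lost with adjustment within that comparison alone. Dsp was also called between the clones, 2.75-fold without and 5.71-fold with doxycycline. The adherens junction cadherin Cdh1 lay between 162 and 194 FPKM, the desmosomal plakophilin Pkp2 between 29.98 and 31.4 FPKM, and plakoglobin (Jup) between 33.3 and 44.0 FPKM. Pkp3, another plakophilin, was at 4.46 and 5.19 FPKM in clone 7 with and without doxycycline. None of these 4 was called. In clone 7 with doxycycline 0 of 16 tested members were called, with a median of -0.01.

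Of 25 epithelial surface and junction genes, 2 were called higher with doxycycline in clone 6 and 23 were not, against 0.0923% of all tested genes called higher. Of the 25, 20 lay above 0, with a median of 0.13. The called genes were the tight junction claudin Cldn4, at 98.4 and 61.0 FPKM, and P-cadherin (Cdh3), at 25.2 and 14.1 FPKM. Both calls were lost with adjustment within that comparison alone. Between the clones without doxycycline 0 of 25 were called by the authors' Cuffdiff-type test at an adjusted q under 0.05, where 1.37% of all tested genes were. In that contrast 22 of 25 stood above 0 with a median of 0.37, where 49.5% of all genes stood above 0. With doxycycline 4 of 25 were called higher in clone 6 and 21 were not, against 0.857% of all tested genes called higher. Among them were Cldn4 (98.4 against 35.6 FPKM), Cldn6 (165 against 95.2 FPKM) and the membrane protease St14 (31.7 against 18.4 FPKM). The most abundant genes, Cdh1, the adhesion molecule Epcam (115 to 152 FPKM) and the protease inhibitor Spint2 (159 to 187 FPKM), were called in none of the 4 comparisons.

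None of 28 epithelial transcription factors was called in any of the 4 comparisons, of which 20 to 23 were tested in each. Of all tested genes, 0.108% were called for doxycycline in clone 6 and 0% in clone 7. Between the clones 1.37% were called without and 1.52% with doxycycline. The absence of calls in a list of this size is near these shares, so nothing is read from it. With doxycycline in clone 6, 13 of 19 at 1 FPKM or more lay above 0, with a median of 0.11. In clone 7, 13 of 18 did, with a median of 0.07. Over all genes 50.4% and 58.0% lay above 0. The most abundant was Klf5, a zinc finger factor of epithelia and ES cells, at 77.2 and 63.5 FPKM in clone 6 and at 106.5 and 97.9 FPKM in clone 7. Klf4 had the same order of clones, at 12.2 and 9.17 FPKM in clone 6 and 19.9 and 15.1 FPKM in clone 7. Klf6 lay between 28.8 and 37.3 FPKM. Tfap2c, a factor of trophectoderm and ectoderm, was at 14.9 and 10.9 FPKM in clone 6 and 9.19 and 7.51 FPKM in clone 7. Klf4 and Klf5 thus had the opposite order of clones to Krt8. Like Krt8 they had higher values with doxycycline in clone 6, but unlike Krt8 also in clone 7. Tfap2c had the order of clones of Krt8, and also had higher values with doxycycline in both clones. Without doxycycline, 14 of 19 of the list at 1 FPKM or more stood above 0 in clone 6 over clone 7. The part of these factors in the keratin values was not tested.

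**Figure D4:**
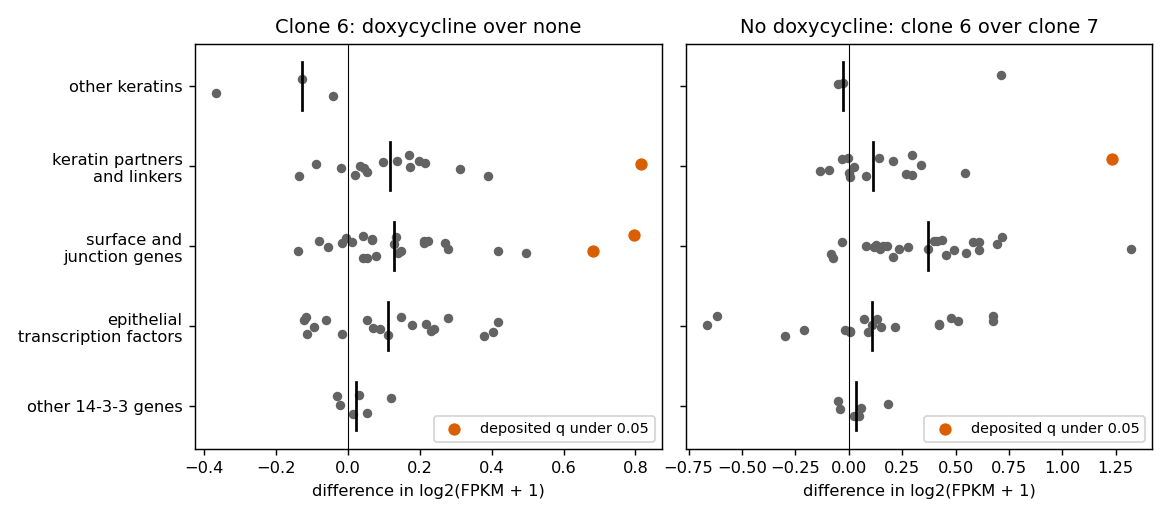
Differences in log2(FPKM + 1) of single genes (points) in 5 lists, with doxycycline over without it in clone 6 (left) and clone 6 over clone 7 without doxycycline (right); black bars are list medians and orange points have a deposited q under 0.05. Medians on the left run from -0.13 for other keratins to 0.13 for surface and junction genes, and the 3 orange points there are Dsp, Cdh3 and Cldn4.

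The genes beside the members on the chromosome had smaller differences in value. Within 100 kb of Krt8 or Krt18, the genes at 1 FPKM or more besides that pair were the translation factor Eif4b (238 to 251 FPKM), Tenc1 (5.55 to 6.74 FPKM) and Spryd3 (8.30 to 9.26 FPKM). Their log2(FPKM + 1) differences between the clones without doxycycline were 0.02, 0.02 and 0.13, against 1.82 for Krt8 and 1.18 for Krt18. Around Sfn 7 genes reached 1 FPKM, among them the nearest, Zdhhc18 (13.9 to 16.0 FPKM), the nuclear migration gene Nudc (354 to 452 FPKM) and the chromatin remodeller Arid1a (70.9 to 101.9 FPKM). The same difference was -0.11 for Zdhhc18, -0.28 for Nudc, -0.43 for Arid1a and 0.25 for Gpn2. It was 0.10 for both 1810019J16Rik and Pigv and -0.01 for Gpatch3, with 1.20 for Sfn itself. None of the neighbours other than members was called in any of the 4 comparisons. Over all tested genes the shares called were 0.108% and 0% for doxycycline in clones 6 and 7. Between the clones they were 1.37% without and 1.52% with doxycycline. Nothing is read from the absence of calls among so few genes. Of the 9 neighbours of Krt19 and the 10 of Krt7, none reached 1 FPKM in any group.

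**Figure D5:**
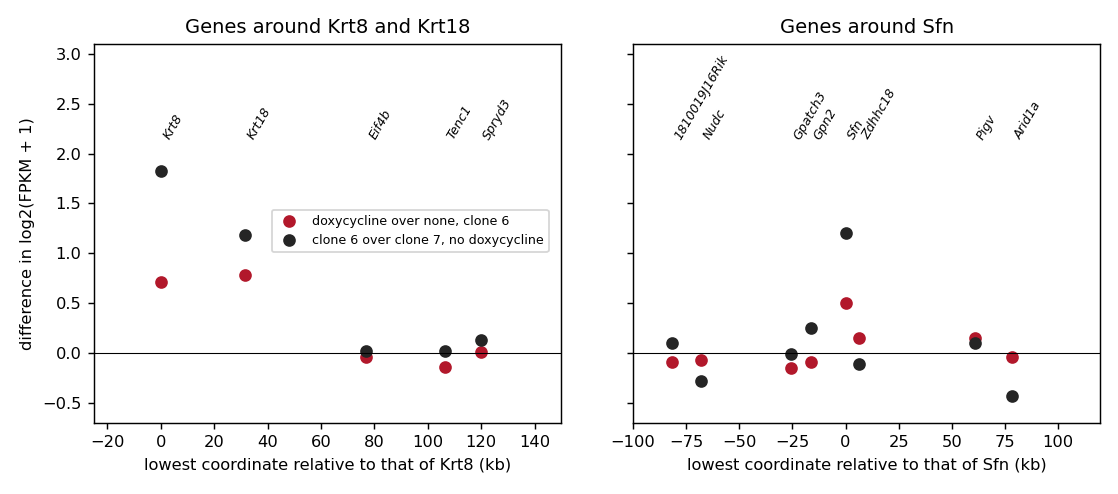
Differences in log2(FPKM + 1) of genes at 1 FPKM or more within 100 kb of Krt8 or Krt18 (left) and of Sfn (right), by position; red is doxycycline over none in clone 6 and black is clone 6 over clone 7 without doxycycline. Krt8, Krt18 and Sfn stand above their neighbours, at 1.82, 1.18 and 1.20 in black, where Eif4b is at 0.02 and Arid1a at -0.43.

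The genes most like Krt8 and Krt18 were taken by the distance between log2(FPKM + 1) profiles, each centred on its mean over the 4 groups, among 11604 genes at 1 FPKM or more in all 4. The nearest were Zfp42 (distance 0.295), Dsp (0.296), Ltb (0.406), Mir3960 (0.415) and Ppp4r4 (0.421). Zfp42, a zinc finger marker of naive ES cells, was at 88.3 and 58.8 FPKM in clone 6 and 20.1 and 18.9 FPKM in clone 7. The cytokine gene Ltb was at 23.3 and 20.2 FPKM and 3.85 and 4.94 FPKM, and the phosphatase regulator Ppp4r4 at 15.4 and 13.1 FPKM and 3.08 and 3.11 FPKM in the same order. Mir3960 is a microRNA gene whose FPKM divides by a very short length and is uncertain. With 4 points per profile this is a description, and by Pearson r 0 of these 5 genes were among the 5 nearest. Of the members, Sfn came 11th, Krt19 31st and Krt7 131st by distance. Among the members themselves Krt18 and Sfn had the closest profiles (0.341) and Krt7 and Krt8 the farthest (1.57).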

How the data were processed

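Gene expression was measured by RNA sequencing of 8 libraries in 4 groups. The authors' deposited table lists 6 pairwise comparisons of the groups in Cuffdiff's column layout, per the file headers. TopHat2 2.0.8, Cufflinks 2.1.1 and build mm10 are named per the submitters' processing notes, with no role given, while annotation, strand and normalization mode are not stated there. Expression was deposited by the authors as FPKM, 1 value per gene and group over both experiments, on which no test could be fitted here. As a score the authors deposited a test statistic, from which each SE was derived. No deposited p-value is below 5e-05, and the deposited q-value matched Benjamini-Hochberg adjustment of 78127 tests of all comparisons within 5.21e-07. Ratios were recomputed from FPKM, since the fold change column holds damaged cells.

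Genes were called at a deposited q under 0.05. List medians use log2(FPKM + 1) and genes at 1 FPKM or more in either group. The members and the 10 gene lists were chosen with earlier results of these data known. The rule for named genes took, from each list, called genes, the 3 of highest mean FPKM and the largest difference in each doxycycline comparison, besides all keratins and neighbours within 100 kb at 1 FPKM or more and the 5 genes most like Krt8 and Krt18. Not all of them are printed, and 1 called gene is not reported here. Python 3.11.15 and pandas 2.3.3 were used, and the adjustment and likeness steps were tested on simulated data. Alternatives were other thresholds, minimums, pseudocounts, scalings and a measure of likeness.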

Additional observations from a re-analysis of the deposited data

How the results depend on the processing

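No paired analysis was possible because the deposited table holds 1 value per group and none per library, so no library could be left out either. Adjusting p within a comparison alone left 0 of the 14 genes called for doxycycline in clone 6, Krt8 and Krt18 included, and brought Krt19 under the threshold between the clones without doxycycline (adjusted p = 0.0442 from the authors' deposited p by Benjamini-Hochberg, against a deposited q of 0.0606). At a q under 0.01 the calls were 7 for doxycycline in clone 6, and 97 without and 125 with doxycycline between the clones, against 14, 179 and 199. Of the 5 genes nearest to Krt8 and Krt18, 2 were among the nearest at a minimum of 5 FPKM and 0 by Pearson r. All 80 recomputed log2 differences of the members, over 2 pseudocounts and 2 scalings, moved by less than 1 SE. The 0 calls for doxycycline in clone 7 stayed 0 under the 3 alternatives tried. Of 180 recomputed list medians, 33 moved by 0.1 or more, among them the endoderm list with keratins in clone 6 with doxycycline (0.47 at 5 FPKM or more, against 0.05). Medians printed above moved too. At 5 FPKM or more, trophoblast markers other than keratins had 0.48 between the clones without doxycycline, against 0.16. Other keratins in clone 6 with doxycycline had -0.25, against -0.13.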

Other observations

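Of 18 cell cycle partners of 14-3-3 sigma and p53 targets, Cdkn1a was the 1 gene called between the clones, without doxycycline (63.7 against 35.4 FPKM) and with it (63.7 against 35.9 FPKM). The shares over all tested genes were 1.37% and 1.52%. Of the 18, 10 stood above 0 in clone 6 over clone 7 without doxycycline and 8 with it, where 49.5% and 46.2% of all genes did. Mdm2 was at 50.5 against 46.2 FPKM without and 47.3 against 50.6 FPKM with doxycycline. Ccng1 was at 87.4 against 68.4 FPKM and 79.9 against 74.1 FPKM. Cdkn1a encodes the cyclin-dependent kinase inhibitor p21 and is, like Sfn, a p53 target higher in clone 6 in both clone contrasts. The ratio with over without doxycycline in clone 6 was 0.999 for Cdkn1a and 1.42 for Sfn, and neither was called there. The mRNA of Trp53 itself lay between 252 and 257 FPKM. The part of p53 in the Sfn values was not tested. The abundant Cdk4 (444 to 470 FPKM) and the apoptosis gene Bax (289 to 315 FPKM) were called in none of the 4 comparisons. In clone 6 with doxycycline 0 of the 18 were called, where 0.108% of all tested genes were. The list median was 0.002 on the log2(FPKM + 1) scale.

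Of 15 other intermediate filament genes, 12 were tested between the clones. The neurofilament gene Nefl was the 1 called, at 89.0 against 24.3 FPKM without and 61.9 against 22.4 FPKM with doxycycline. Among all tested genes 1.37% were called without and 1.52% with doxycycline. The value of Nefl in clone 6 was lower with doxycycline than without it, the opposite order to Krt8, and that difference was not called. Vimentin (Vim), the filament of mesenchymal cells, lay between 227 and 268 FPKM and lamin B1 (Lmnb1) between 195 and 209 FPKM, and neither was called in any of the 4 comparisons.

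Among the endoderm markers, the laminin chain gene Lama1 was called lower in clone 6, at 1.54 against 3.48 FPKM without and 2.11 against 5.13 FPKM with doxycycline, the reverse of the keratins that this list also holds. In each clone contrast Lama1 was the 1 gene called of 7 tested endoderm markers that are not keratins. The shares over all tested genes were 1.37% without and 1.52% with doxycycline.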
